A study of Zea mays with 28 samples.

Results

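The 13-lipoxygenases *LOX7* to *LOX11* of maize were followed in messenger RNA of leaves that had been fed on by spider mites or wounded. The members were 5 genes taken by identifier from the 39625 genes of the count table. The rule used no value, but the genes were chosen with earlier results of these data known. They were *LOX7* (GRMZM2G070092), *LOX8* (GRMZM2G104843, named *ts1* in RefSeq), *LOX9* (GRMZM2G017616), *LOX10* (GRMZM2G015419) and *LOX11* (GRMZM2G009479). Every sample was the enclosed section of leaf 4 of one 22-day-old plant of the inbred line B73, so the 4 replicates of each of the 7 groups were separate plants. Leaves carried adult females of the grass specialist *Oligonychus pratensis* (Banks grass mite) for 2 or 24 h, adult females of the generalist *Tetranychus urticae* (two-spotted spider mite) for 2 or 24 h, or had been rubbed on both faces with 60 grit sandpaper 2 or 24 h before harvest. Control leaves had the same wax enclosure and no treatment, and all 28 leaves were harvested together. The enclosures held 400 mites for 2 h and 200 mites for 24 h, so feeding time and mite number cannot be told apart.

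Lipoxygenases add oxygen to polyunsaturated fatty acids. The 13-lipoxygenases act in plastids and turn linolenic acid into a hydroperoxide that stands at a branch point. Allene oxide synthase, allene oxide cyclase and oxophytodienoate reductase lead from it to jasmonic acid, the hormone of wound and herbivore responses, and hydroperoxide lyase leads to the volatile aldehydes, alcohols and esters released by cut grass. In maize, *LOX8* is the *tasselseed1* gene, which supplies jasmonate in the tassel and is needed for male flowers to form, and *LOX10* is known for the supply of green leaf volatiles. *LOX7* and *LOX8* are close paralogs, as are *LOX10* and *LOX11*. The separate roles of *LOX7*, *LOX9* and *LOX11* are less well described.

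Library totals ranged from 14721310 to 32891100 reads. *LOX10* gave 49329 to 229433 reads a library, *LOX8* 911 to 11755, *LOX9* 133 to 1353, *LOX11* 229 to 1045 and *LOX7* only 5 to 47. Levels are given in CPM, the read count of a gene scaled to the TMM-adjusted size of its library. CPM was not divided by transcript length, so it compares a gene between leaves and not one gene with another. All 5 members were among the 22339 genes kept for testing, but *LOX7* reached the expression cutoff of 0.378 CPM in 1 of the 4 control leaves and entered the test through the treated leaves. A gene was called, and is said to have risen or fallen, where edgeR's quasi-likelihood test gave an adjusted p no higher than 0.01 with a log2 fold change of 1 or more in size.

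The 5 members did not move as a unit. *LOX8* rose most at 2 h and most strongly after wounding, *LOX9* rose at 2 h after wounding and at 24 h with both mites, *LOX10* rose with *T. urticae* at 24 h, and *LOX11* was called in no treatment against the controls. At 2 h after wounding 3 of the 5 genes were called higher (*LOX7*, *LOX8* and *LOX9*), where 17% of all tested genes were called higher. At 2 h of feeding the count was 2 with *O. pratensis* (*LOX8* and *LOX9*), against 5.25% of all tested genes, and 1 with *T. urticae* (*LOX8*), against 2.47%. At 24 h it was 1 with *O. pratensis* (*LOX9*), against 12.3%, and 3 with *T. urticae* (*LOX7*, *LOX9* and *LOX10*), against 15%. At 24 h after wounding 0 of the 5 were called in either direction by edgeR, where 8.61% of all tested genes were called and 2 members had an unadjusted p under 0.05. DESeq2 also called 0 there. Counted by leaves instead, the lowest treated leaf lay above the highest control leaf for 4 members at 2 h after wounding (26.3% of all tested genes), 2 with *O. pratensis* (10%) and 1 with *T. urticae* (5.43%) at 2 h, and all 5 at 24 h with *O. pratensis* (22.7%) and with *T. urticae* (26.5%). At 24 h after wounding this held for 0 members (16.3% of all tested genes), while 1 (*LOX11*) lay wholly below the controls (12.4%). The 6 treatments were compared with the same 4 control leaves, so these comparisons are not independent of each other.

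**Figure D1:**
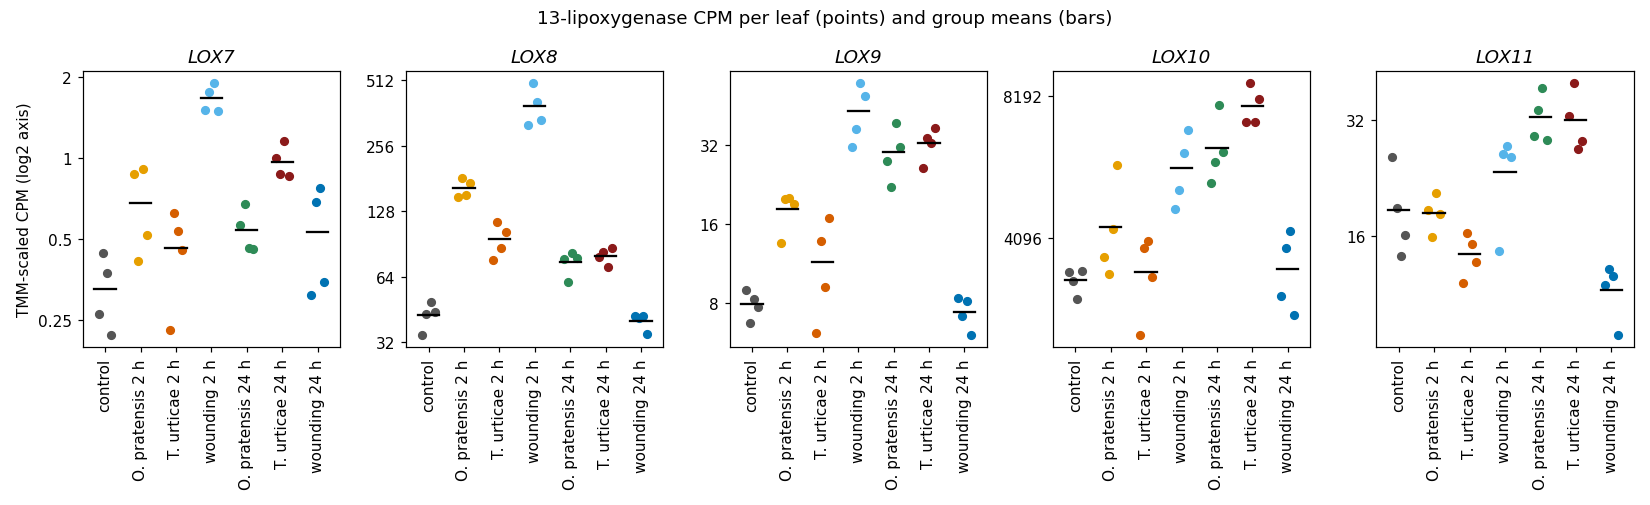
Level of each 13-lipoxygenase in TMM-scaled CPM (log2 axes that differ between panels), with 1 point for each of the 4 leaves of a group and a bar at the group mean. *LOX8* was highest at 2 h after wounding (389 CPM) and *LOX10* at 24 h of *T. urticae* feeding (7800 CPM), while the leaves harvested 24 h after wounding lay close to the controls for both genes.

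*LOX8* showed the widest range of the family. The 4 control leaves held 34.5, 42.9, 48.7 and 44.1 CPM (mean 42.6 ± 5.90, SD, n = 4). At 2 h after wounding the leaves held 317, 494, 407 and 337 CPM (389 ± 80.2, n = 4), so that the lowest wounded leaf lay well above the highest control leaf. With 2 h of *O. pratensis* the values were 148, 182, 151 and 171 CPM (163 ± 16.0, n = 4). With 2 h of *T. urticae* they were 76.3, 114, 86.4 and 103 CPM (94.96 ± 16.9, n = 4). The 3 treatments at 2 h and the controls thus formed 4 ranges that did not overlap, in the order wounding, *O. pratensis*, *T. urticae*, control. Against the controls, *LOX8* rose 9.14-fold after wounding (log2 fold change 3.19 ± 0.15, SE, edgeR adjusted p = 7.43e-16), 3.83-fold with *O. pratensis* (1.94 ± 0.14, edgeR adjusted p = 7.15e-11) and 2.23-fold with *T. urticae* (1.16 ± 0.14, edgeR adjusted p = 1.67e-06).

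At 24 h the mean level of *LOX8* was below its 2 h level in all 3 treatments. The leaves with *O. pratensis* held 76.9, 60.2, 82.0 and 78.0 CPM (74.3 ± 9.65, n = 4). The leaves with *T. urticae* held 78.4, 83.3, 70.6 and 86.5 CPM (79.7 ± 6.92, n = 4). Both mite groups overlapped each other and still lay above every control leaf. Their fold changes of 1.75 and 1.87 had edgeR adjusted p of 3.97e-05 and 4.68e-06 but were under the fold threshold. The wounded leaves held 41.9, 41.2, 42.0 and 35.0 CPM at 24 h (40.02 ± 3.37, n = 4), a range that overlapped the controls (log2 fold change -0.09 ± 0.14, edgeR adjusted p = 0.657, 95% interval -0.37 to 0.20).

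*LOX9* rose in 4 of the 6 treatments, the most of any member. Control leaves held 9.02, 6.74, 8.33 and 7.73 CPM (7.96 ± 0.97, n = 4). At 2 h after wounding the values were 31.4, 36.8, 54.6 and 48.9 CPM (42.9 ± 10.7, n = 4), a 5.39-fold rise (log2 fold change 2.43 ± 0.23, edgeR adjusted p = 8.57e-10). Every wounded leaf at 2 h lay above every control leaf. With *O. pratensis* the leaves held 13.5, 19.95, 20.1 and 19.1 CPM at 2 h (18.2 ± 3.13, n = 4) and 27.8, 22.1, 38.5 and 31.2 CPM at 24 h (29.9 ± 6.88, n = 4). With *T. urticae* they held 6.14, 13.8, 9.21 and 16.9 CPM at 2 h (11.5 ± 4.78, n = 4) and 25.996, 34.0, 32.4 and 37.0 CPM at 24 h (32.4 ± 4.66, n = 4). The early *T. urticae* leaves overlapped the controls, and the other 3 mite groups did not.

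The rise of *LOX9* was 2.28-fold with *O. pratensis* at 2 h (log2 fold change 1.19 ± 0.23, edgeR adjusted p = 4.60e-04). At 24 h it reached 3.76-fold under *O. pratensis* (1.91 ± 0.23, edgeR adjusted p = 1.72e-07) and 4.07-fold with *T. urticae* (2.03 ± 0.23, edgeR adjusted p = 4.60e-08). With *T. urticae* at 2 h the log2 fold change of *LOX9* was 0.53 ± 0.23 (edgeR adjusted p = 0.294). At 24 h after wounding *LOX9* was at 8.40, 7.18, 8.13 and 6.07 CPM (7.44 ± 1.05, n = 4) and its range overlapped that of the controls (log2 fold change -0.09 ± 0.23, edgeR adjusted p = 0.787).

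*LOX10*, the green leaf volatile gene, was steady in the controls and highest in the mite leaves at 24 h. Control leaves held 3460, 3318, 3036 and 3476 CPM (3322.5 ± 204, n = 4). With *T. urticae* at 24 h the leaves held 7206, 8713, 7197 and 8081 CPM (7800 ± 737, n = 4), a 2.35-fold rise with no overlap (log2 fold change 1.23 ± 0.17, edgeR adjusted p = 1.21e-06). This was the only treatment in which *LOX10* was called. With *O. pratensis* at 24 h they held 5351, 5930, 7858 and 6238 CPM (6344 ± 1074, n = 4). At 2 h after wounding they held 4714, 5163, 6200 and 6927 CPM (5751 ± 1001, n = 4). In both of these groups each leaf exceeded each control leaf, and the log2 fold changes of 0.93 ± 0.17 (edgeR adjusted p = 8.53e-05) and 0.79 ± 0.17 (edgeR adjusted p = 2.63e-04) stayed under the fold threshold. Without replicate 1 of *O. pratensis* at 24 h the first of these was 1.01 and was called.

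The other *LOX10* groups overlapped the controls. The ranges were 3430 to 5844 CPM with *O. pratensis* at 2 h, 2544 to 4030 CPM with *T. urticae* at 2 h and 2809 to 4241 CPM at 24 h after wounding. The log2 fold changes were 0.38 ± 0.17 (edgeR adjusted p = 0.207), 0.06 ± 0.17 (edgeR adjusted p = 0.952) and 0.08 ± 0.17 (edgeR adjusted p = 0.756). For *T. urticae* at 2 h the 95% interval ran from -0.29 to 0.41, all of it below the 1.23 of the same species at 24 h.

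*LOX11*, the close paralog of *LOX10*, was called in none of the 6 treatments against the controls. Control leaves held 25.6, 18.9, 14.2 and 16.1 CPM (18.7 ± 4.99, n = 4). At 24 h the values were 29.0, 33.8, 38.7 and 28.4 CPM with *O. pratensis* (32.5 ± 4.81, n = 4) and 32.6, 39.7, 26.9 and 28.1 CPM with *T. urticae* (31.8 ± 5.79, n = 4). Both mite groups lay above all 4 controls, with log2 fold changes of 0.79 ± 0.18 (edgeR adjusted p = 8.83e-04) and 0.77 ± 0.18 (edgeR adjusted p = 8.44e-04) that were under the fold threshold. At 24 h after wounding the leaves held 11.9, 13.1, 12.5 and 8.85 CPM (11.6 ± 1.90, n = 4), and all 4 lay below all 4 controls (log2 fold change -0.69 ± 0.18, edgeR adjusted p = 0.00530, also under the fold threshold). At 2 h the ranges overlapped the controls in every treatment, from 15.9 to 20.7 CPM with *O. pratensis*, from 12.1 to 16.3 CPM with *T. urticae* and from 14.6 to 27.3 CPM after wounding. The log2 fold change of *LOX11* at 2 h after wounding was 0.32 ± 0.18 (edgeR adjusted p = 0.133). It was 0.49 without wounded replicate 1, at 14.6 CPM the lowest of its group (edgeR adjusted p = 0.0142), and 0.54 without control replicate 1, at 25.6 CPM the highest control (edgeR adjusted p = 0.0119), and it was called in neither fit.

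*LOX7* was measured on few reads, and its values carry a wide counting error. Control leaves gave 7, 13, 9 and 5 reads, and an exact 95% Poisson interval for the lowest of these runs from 1.62 to 11.7 reads. At 2 h after wounding the leaves gave 41, 42, 47 and 38 reads, and with *T. urticae* at 24 h they gave 22, 23, 28 and 23 reads. After scaling these were 0.33 ± 0.10 CPM in the controls, 1.67 ± 0.20 CPM after wounding and 0.97 ± 0.14 CPM with *T. urticae* (SD, n = 4 each), and neither treated group overlapped the controls. *LOX7* rose 4.99-fold at 2 h after wounding (log2 fold change 2.32 ± 0.30, edgeR adjusted p = 2.02e-07) and 2.91-fold at 24 h of *T. urticae* (1.54 ± 0.31, edgeR adjusted p = 1.76e-04).

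The other *LOX7* groups were not called. The *O. pratensis* leaves gave 22, 6, 19 and 13 reads at 2 h, then 17, 20, 12 and 12 reads at 24 h. The early group had a log2 fold change of 1.06 ± 0.33 (edgeR adjusted p = 0.0372) and the late group one of 0.71 ± 0.33 (edgeR adjusted p = 0.0861). With *T. urticae* at 2 h the reads were 5, 12, 12 and 11 (0.47 ± 0.35, edgeR adjusted p = 0.694). At 24 h after wounding they were 10, 21, 27 and 11 (0.68 ± 0.33, edgeR adjusted p = 0.110), and the range of 0.31 to 0.78 CPM overlapped the upper part of the control range, 0.22 to 0.44 CPM.

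**Figure D2:**
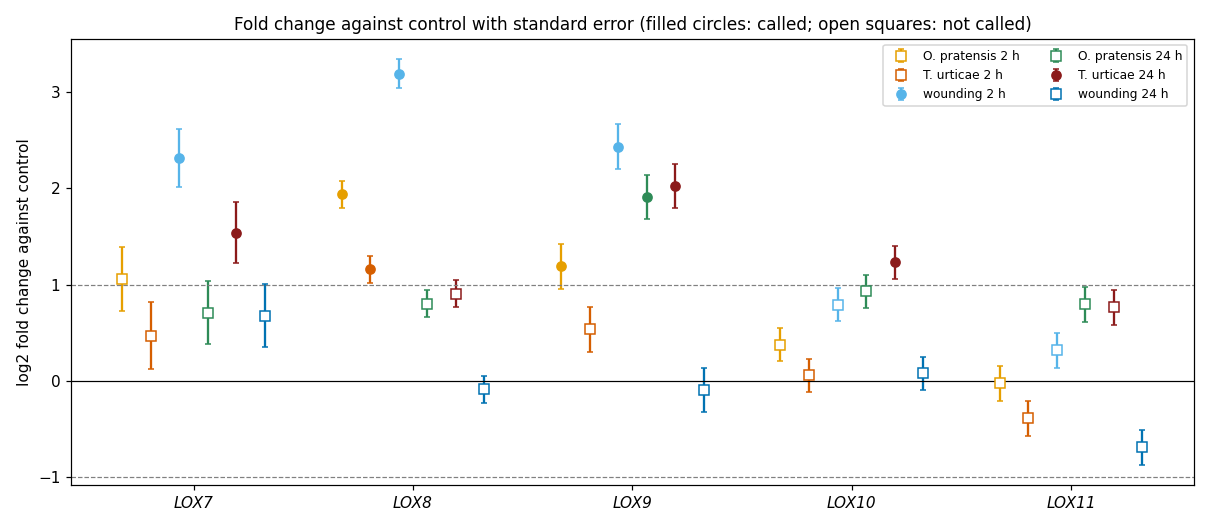
Log2 fold change of each 13-lipoxygenase against the 4 control leaves in the 6 treatments, with its standard error from the edgeR fit. Filled circles mark calls, open squares the rest, and dashed lines the fold threshold of 1, and the value of 3.19 for *LOX8* at 2 h after wounding is the highest plotted.

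The order of the 7 groups differed from gene to gene. *LOX8* ran from 24 h after wounding and the controls, which overlapped, across a gap and through the 3 chained groups of *O. pratensis* at 24 h, *T. urticae* at 24 h and *T. urticae* at 2 h, to *O. pratensis* at 2 h and then wounding at 2 h, each apart from its neighbours. *LOX9* had the same group at each end, but its 24 h mite groups stood above its 2 h mite groups, with a gap only between *O. pratensis* at 2 h (at most 20.1 CPM) and *O. pratensis* at 24 h (at least 22.1 CPM). *LOX10* ran from the controls to *T. urticae* at 24 h and *LOX11* from 24 h after wounding to *O. pratensis* at 24 h, and in both genes every group overlapped the next one in the order. In *LOX7* only wounding at 2 h stood apart from its neighbour.

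*LOX8* and *LOX10*, the genes with the most reads, peaked in different groups. The wounded leaves at 2 h held the most *LOX8*, whereas the *T. urticae* leaves at 24 h held at least 7197 CPM of *LOX10* with no more than 86.5 CPM of *LOX8*. In the plot of both genes leaf by leaf, the early mite groups lie above the controls along the *LOX8* axis, the late mite groups lie to the right along the *LOX10* axis, and the early wounded leaves lie high on both.

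**Figure D3:**
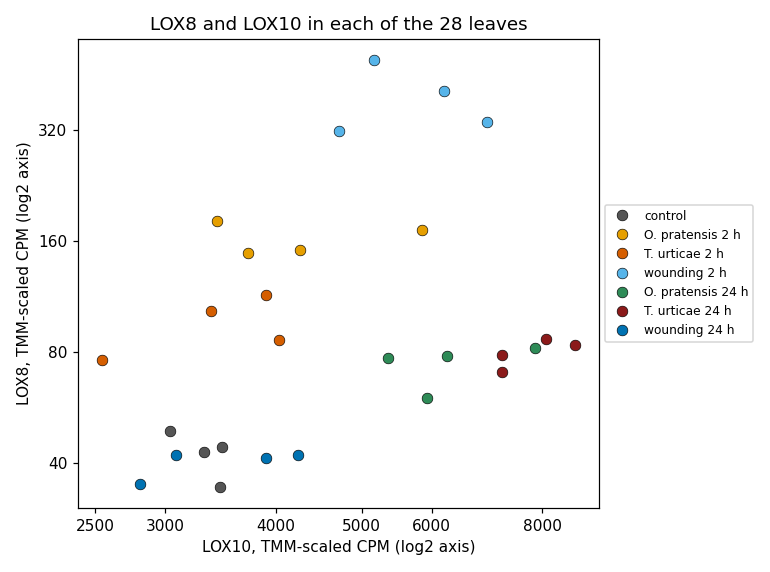
*LOX8* against *LOX10* in each of the 28 leaves, both in TMM-scaled CPM on log2 axes, coloured by group. Wounded leaves at 2 h lie at 317 to 494 CPM of *LOX8*, while the 4 leaves with *T. urticae* at 24 h lie at 7197 to 8713 CPM of *LOX10* and 70.6 to 86.5 CPM of *LOX8*.

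Ratios of reads within a leaf need no scaling between libraries, and that of *LOX9* to *LOX8* separated the early from the late mite leaves. For every 100 reads of *LOX8* the control leaves gave 15.7 to 26.1 reads of *LOX9*. At 2 h the mean ratios were 11.2 ± 1.70 (*O. pratensis*), 11.8 ± 3.50 (*T. urticae*) and 11.3 ± 3.25 (wounding, SD, n = 4 each). At 24 h of mite feeding the leaves ranged from 36.1 to 47.0 with *O. pratensis* and from 33.2 to 45.9 with *T. urticae*, above every control leaf. At 24 h after wounding it was 18.5 ± 1.36, within the control range. These ratios are descriptions of reads that were not corrected for length, and their differences were not tested.

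Of all reads of the 5 genes, *LOX8* took 1.26% ± 0.24 in the controls, 6.39% ± 1.67 at 2 h after wounding, 3.75% ± 0.91 at 2 h of *O. pratensis* and 2.68% ± 0.40 at 2 h of *T. urticae* (SD, n = 4 each). At 24 h its mean share was between 1.00% and 1.16% in all 3 treatments. *LOX10* took 97.9% of these reads in the controls and 92.5% at 2 h after wounding. Longer transcripts give more reads, so the shares describe how the mixture shifted between leaves and not which gene was the more abundant.

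Both paralog pairs were checked because counts of uniquely aligned reads can lose or misplace reads between close copies. *LOX7* gave a mean of 0.43 to 1.31 reads for every 100 of *LOX8*, lowest at 2 h of *O. pratensis* and highest at 24 h after wounding. *LOX11* gave 0.33 to 0.56 reads for every 100 of *LOX10*, lowest at 24 h after wounding and highest in the controls. The counts of *LOX7* and *LOX11* were therefore small beside those of their paralogs in every group, and both are uncertain to the extent that reads were shared. The part of shared reads in their values was not tested.

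Leaves with *O. pratensis* were then set against leaves with *T. urticae*. At 2 h 0 of the 5 genes were called by edgeR (0.68% of all tested genes), and 2 had an unadjusted p under 0.05. *LOX8* was 1.72-fold higher with *O. pratensis* than with *T. urticae*, with no overlap between the groups (log2 difference 0.78 ± 0.14, edgeR adjusted p = 0.00195). In this fit of all leaves it was left out of the calls by the fold threshold alone. With 1 leaf left out in turn, its log2 difference ran from 0.69 to 0.89 and its edgeR adjusted p reached 0.0154, above the p threshold. All 5 differences at 2 h were positive, from 0.32 to 0.78. Of all tested genes 152 were called higher with *O. pratensis* at 2 h and 0 lower, and the median over all tested genes was 0.001. This count over all genes was not stable. A fit of only the groups compared called 1 gene in either direction, and leaving out 1 leaf in turn gave 35 to 223. At 24 h 0 of the 5 were called (0.9% of all tested genes), and 1 had an unadjusted p under 0.05. This was *LOX7*, lower in each leaf with *O. pratensis* than in any leaf with *T. urticae* (log2 difference -0.83 ± 0.29, edgeR adjusted p = 0.1003). For the better counted *LOX8*, *LOX9* and *LOX11* the differences at 24 h were -0.10 ± 0.14, -0.12 ± 0.22 and 0.03 ± 0.18. That of *LOX10*, the member with the most reads, was -0.30 ± 0.17 (edgeR adjusted p = 0.368), with overlap between the groups. Neither DESeq2 fit called any of the 5 at either time.

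The change of the species difference between 2 and 24 h was tested as an interaction. It was called for 0 of the 5 genes (0.739% of all tested genes were called), although 4 had an unadjusted p under 0.05 and all 5 estimates were negative. The calls over all tested genes leaned the same way, with 157 lower and 8 higher, and the median over all tested genes was -0.02. The total called in either direction was 125 in a fit of only the groups compared and 82 to 300 with 1 leaf left out in turn. No all-gene share was taken for the unadjusted p. DESeq2 called 0 of the 5 as well. *LOX8* came closest, with a log2 difference of -0.88 ± 0.19 (edgeR adjusted p = 0.0116). Without replicate 2 of *T. urticae* at 2 h, which had the highest *LOX8* value of its group, the value was -1.01 and was called.

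Levels at 24 h were also set against those at 2 h within each treatment. With *T. urticae* 4 of the 5 genes were higher at 24 h than at 2 h and called (11.5% of all tested genes), namely *LOX7*, *LOX9*, *LOX10* and *LOX11*. *LOX9* rose most, by 2.81-fold (log2 difference 1.49 ± 0.23, edgeR adjusted p = 5.43e-06), *LOX10* rose 2.25-fold (1.17 ± 0.17, edgeR adjusted p = 3.54e-06) and *LOX11* 2.23-fold (1.15 ± 0.18, edgeR adjusted p = 1.10e-05), each without overlap. The call of *LOX7* (1.07 ± 0.31, edgeR adjusted p = 0.00535) rested on few reads and was lost in a fit of only the groups compared (adjusted p = 0.0135), in DESeq2 with its prior (log2 difference 0.97), and without replicate 1 or 4 at 2 h or replicate 1 or 3 at 24 h (0.85 to 1.07 in these fits). *LOX8* alone did not rise, at -0.25 ± 0.14 (edgeR adjusted p = 0.133).

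With *O. pratensis* the only call between the times was the fall of *LOX8* (1.21% of all tested genes were called lower), to 0.456 of its 2 h level (log2 difference -1.13 ± 0.14, edgeR adjusted p = 5.35e-07), without overlap. *LOX9*, *LOX10* and *LOX11* had positive differences of 0.72 ± 0.22, 0.56 ± 0.17 and 0.82 ± 0.18, of which only that of *LOX11* passed the p threshold (edgeR adjusted p = 0.00114). None of the 3 reached the fold threshold.

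After wounding 4 of the 5 genes were called lower at 24 h than at 2 h (14.7% of all tested genes), and all 5 members were lower in every leaf at 24 h than in any leaf at 2 h (27.4% of all tested genes). *LOX8* fell to 0.103 of its 2 h level (log2 difference -3.28 ± 0.15, edgeR adjusted p = 9.15e-16), *LOX9* to 0.174 (-2.53 ± 0.23, edgeR adjusted p = 4.74e-10), *LOX7* to 0.321 (-1.64 ± 0.27, edgeR adjusted p = 1.02e-05) and *LOX11* to 0.496 (-1.01 ± 0.18, edgeR adjusted p = 3.47e-05). The *LOX11* value was close to the fold threshold and slipped under it without replicate 2, 3 or 4 at 2 h or replicate 4 at 24 h (-0.90 to -0.96 in these fits). *LOX10* had a log2 difference of -0.71 ± 0.17 (edgeR adjusted p = 7.95e-04), under the fold threshold.

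**Figure D4:**
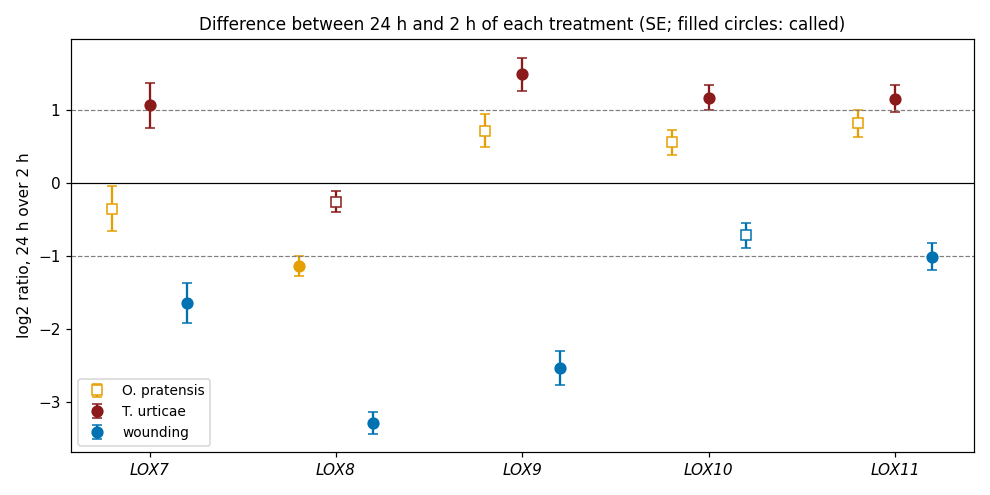
Log2 ratio of 24 h over 2 h for each 13-lipoxygenase within each treatment, with its standard error from the edgeR fit, filled circles for calls, open squares for the rest and dashed lines at the fold threshold. After wounding all 5 values are negative, from -3.28 to -0.71, while with *T. urticae* 4 of the 5 are called above 1.

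The course with mites was set against the course after wounding in the same model, a comparison that was added after the values had been seen. The mean change from 2 to 24 h over both species was higher than the change after wounding for all 5 genes, and all 5 were called (19.5% of all tested genes were called higher). The log2 differences were 3.63 ± 0.28 for *LOX9* (edgeR adjusted p = 1.65e-11), 2.59 ± 0.17 for *LOX8* (edgeR adjusted p = 8.96e-13) and 2.00 ± 0.23 for *LOX11* (edgeR adjusted p = 2.09e-08). *LOX7* stood at 2.00 ± 0.35 (edgeR adjusted p = 1.83e-05) and *LOX10* at 1.58 ± 0.21 (edgeR adjusted p = 3.32e-07). Sandpaper wounds were made once, whereas mites fed until harvest, so the type of damage and its duration cannot be told apart.

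At 2 h the mite leaves stood below the wounded leaves. *LOX7*, *LOX8* and *LOX9* were called lower with mites (14.3% of all tested genes were called lower), with log2 differences of -1.55 ± 0.24, -1.64 ± 0.11 and -1.57 ± 0.18 (edgeR adjusted p = 2.55e-06, 1.76e-12 and 3.60e-08), and each of these 3 was lower in all 8 mite leaves than in any wounded leaf (22.1% of all tested genes). *LOX10* and *LOX11* differed by -0.57 ± 0.14 and -0.53 ± 0.16 (edgeR adjusted p = 0.00131 and 0.00503), both with overlap and under the fold threshold. At 24 h all 5 differences were positive. *LOX9*, *LOX11* and *LOX10* were called higher with mites (8.34% of all tested genes were called higher), by 4.17-fold (log2 difference 2.06 ± 0.21, edgeR adjusted p = 1.59e-08), 2.77-fold (1.47 ± 0.17, edgeR adjusted p = 8.83e-08) and 2.01-fold (1.00 ± 0.15, edgeR adjusted p = 7.84e-06). *LOX8* was 1.92-fold higher but under the fold threshold (log2 difference 0.94 ± 0.12, edgeR adjusted p = 8.94e-07). These 4 genes were higher in all 8 mite leaves than in any wounded leaf (17.4% of all tested genes). The call of *LOX10* sat on the threshold and was lost with RLE size factors (0.99), in DESeq2 (0.97 and 0.99 with and without its prior), in a fit of only the groups compared (0.98), and without replicate 1 or 4 of the wounded leaves, replicate 2 or 4 of *T. urticae* or replicate 3 of *O. pratensis* at 24 h (0.91 to 1.00).

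The other named genes of lipoxygenase and jasmonate synthesis give the setting of these changes. Of 18 listed symbols 14 were paired with a single identifier, and all 14 were tested. *LOX13*, which the study also places among the 13-lipoxygenases, was not paired, so its values are not given. Against the controls 10 of the 14 rose at 2 h after wounding (17% of all tested genes), 8 at 2 h of *O. pratensis* (5.25%) and 5 at 2 h of *T. urticae* (2.47%). At 24 h 10 rose with *O. pratensis* (12.3%), 11 with *T. urticae* (15%) and 1 after wounding (7.8%). None of the 14 was called lower in these 6 comparisons, where 0.00895% to 8.47% of all tested genes were. At 2 h after wounding their median log2 fold change was 3.76, that of the 5 members was 2.32 and that of all tested genes was -0.03. At 24 h of *T. urticae* the same medians were 1.83, 1.23 and 0.04, and at 24 h of *O. pratensis* they were 1.93, 0.80 and -0.01.

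Several genes of the steps after the 13-lipoxygenases had larger fold changes than any member at 2 h after wounding. *AOS1*, an allene oxide synthase gene, went from 1.99 CPM in the controls to 1109 CPM (log2 fold change 9.13 ± 0.42, edgeR adjusted p = 4.58e-16), and was the single gene of the list still called at 24 h after wounding (3.26 ± 0.35, edgeR adjusted p = 4.83e-08). *AOC1* and *AOC2*, for allene oxide cyclase, rose by 3.79 ± 0.19 and 4.97 ± 0.27 on the log2 scale (edgeR adjusted p = 2.52e-15 and 9.41e-15). *OPR7* is one of the oxophytodienoate reductase genes that act in jasmonate synthesis in maize. It rose by 2.34 ± 0.15 (edgeR adjusted p = 2.04e-13), less than *LOX8* (3.19) and *LOX9* (2.43). *OPR8*, the duplicate of *OPR7*, did not follow it, at -0.52 ± 0.13 at 2 h after wounding (edgeR adjusted p = 9.43e-04, under the fold threshold).

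The 9-lipoxygenases oxygenate the same fatty acids at another carbon and feed other oxylipins, and *LOX3* and *LOX5* among them had larger fold changes than any member. *LOX5* went from 1.86 CPM in the controls to 815 CPM at 2 h after wounding, to 408 CPM at 24 h of *O. pratensis* and to 396 CPM at 24 h of *T. urticae*, with log2 fold changes of 8.78, 7.78 and 7.73 (edgeR adjusted p = 2.38e-13, 7.76e-12 and 5.94e-12). *LOX3* rose in the same 3 groups, with log2 fold changes of 7.42, 6.93 and 7.12 (edgeR adjusted p = 2.02e-12, 3.56e-11 and 1.67e-11). Its control leaves held only 0.42 CPM, on 5 to 21 reads a library. *LOX4* rose less in these groups, with log2 fold changes of 2.70, 1.47 and 1.18 (edgeR adjusted p = 6.83e-12, 8.50e-07 and 1.19e-05). *LOX12* was called in none of the 6 comparisons, with log2 fold changes from -0.39 to -0.05. The largest fold change of any member against the controls, 3.19 for *LOX8*, was below the median of the 14 pathway genes in the same comparison.

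**Figure D5:**
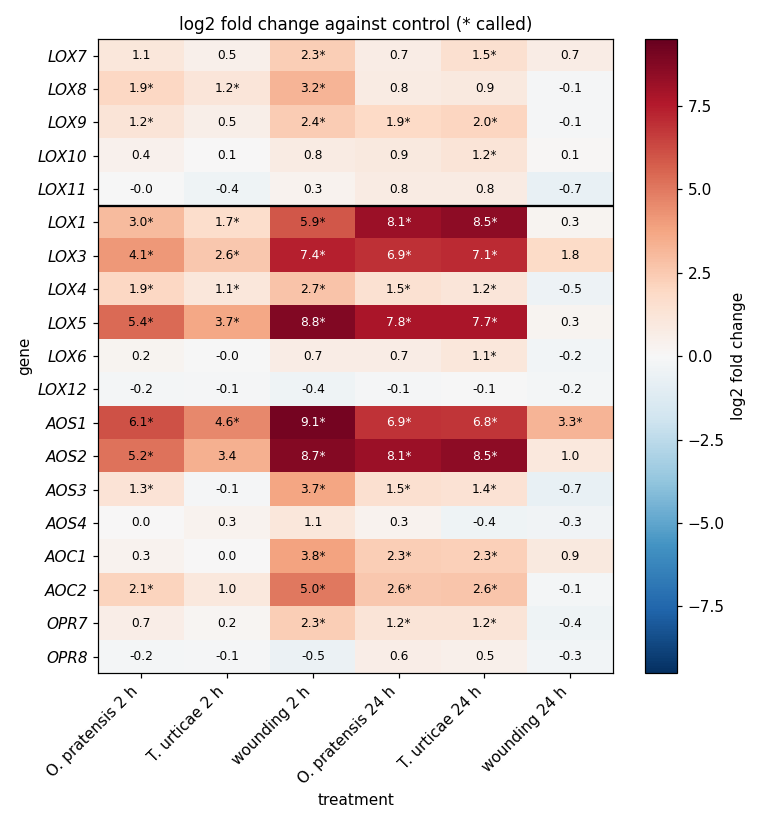
Log2 fold change against the controls of the 5 members (above the line) and the 14 other lipoxygenase and jasmonate synthesis genes (below it) in the 6 treatments, printed in each cell and coloured from blue (lower) to red (higher), with a star for calls. The reddest cells belong to *AOS1*, *AOS2*, *LOX5* and *LOX1*, *AOS1* reaching 9.13 (*AOS2* had only 1 to 3 reads in a control library), while no member exceeds 3.19.

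Gene by gene likeness was measured as the root mean square difference of log2 CPM over the 28 leaves after each gene's mean was removed, over 17020 genes of sufficient level. Among the members, *LOX10* and *LOX11* were the most alike (0.30) and *LOX8* and *LOX11* the least (1.08). By this measure *LOX7* was no closer to its paralog *LOX8* (0.74) than to *LOX10* (0.59). The measure counts the size of the changes as well as their pattern. The SD over the 28 leaves was 0.74 for *LOX7*, 1.07 for *LOX8* and 0.50 for *LOX10*, and likeness of pattern alone was not compared between members. The gene nearest to *LOX10* of all 17020 was *LOX6* (0.18), an atypical lipoxygenase gene, which went from 969 ± 127 CPM in the controls to 2088 ± 185 CPM at 24 h of *T. urticae* (SD, n = 4 each), a 2.16-fold rise (edgeR adjusted p = 1.19e-04). It was called in the same single treatment as *LOX10*. Since *LOX6* was picked for its likeness to *LOX10* in these same leaves, the shared call is part of that likeness and no separate support.

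The gene nearest to *LOX8* was GRMZM2G084694 (0.17), with 35.9 ± 6.87 CPM in the controls, 332 ± 53.2 CPM at 2 h after wounding, 154 ± 16.6 CPM at 2 h of *O. pratensis* and 100 ± 16.9 CPM at 2 h of *T. urticae*. The next were GRMZM2G037015 (0.21) and GRMZM2G066197 (0.23). *LOX9* was nearest to GRMZM2G086163 (0.29), *LOX11* to GRMZM2G129375 (0.29) and *LOX7*, with the loosest match, to GRMZM2G099481 (0.39). The *LOX7* match depends on the prior count, and with 0.5 in place of 2 GRMZM2G099481 was not among its nearest 3 and GRMZM2G161335 came first. The leaves behind these values share libraries and treatments, and the likeness is a description.

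The leaf identity of the samples was clear from its markers. The C4 photosynthesis genes *pep1*, *pdk1*, *me3*, *ssu1* and *rca1* were far above 0 in all 28 libraries, and the 4 endosperm genes measured summed to at most 0.04 CPM. The summed level of the 5 leaf markers was 73700 to 95820 CPM in the controls and overlapped that range at 2 h with either mite. It was lower at 2 h after wounding (55600 to 62480 CPM), at 24 h after wounding (58450 to 65510 CPM), at 24 h of *O. pratensis* (48740 to 58540 CPM) and lowest at 24 h of *T. urticae* (33390 to 50980 CPM). Its part in the lipoxygenase values was not tested, and in a leaf section fewer cells of a type and less RNA per cell cannot be told apart.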

How the data were processed

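Messenger RNA of 28 leaves was sequenced from stranded, poly(A)-selected libraries. The authors aligned reads with STAR 2.5.2b to the B73 RefGen_v3 (AGPv3) genome and counted uniquely aligned reads per gene on the annotated strand with HTSeq 0.6.0. The deposited values are raw counts for 39625 genes, with no normalization. Groups came from the sample titles.

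Counts were fitted in R 4.3.3 with edgeR 4.0.16: filterByExpr by group with a minimum count of 10 (22339 genes kept), TMM scaling, one quasi-likelihood fit of all 28 leaves, and Benjamini-Hochberg adjustment over all tested genes. Following the study's thresholds, a call needed an adjusted p no higher than 0.01 and a log2 fold change of 1 or more in size. Intervals are 95% and, for single counts, cover counting error only. Log2 CPM used a prior count of 2. The fit was tested on counts simulated for wounding at 2 h against the controls, with 100 genes changed 2-fold and 100 changed 4-fold. Of these 43% and 96% were called, and 75% and 96% passed the adjusted p alone. The changed genes were drawn from those with a mean of at least 1 CPM, so the shares do not cover a gene as low as *LOX7*. Only these 200 genes were changed, whereas 25.4% of all tested genes were called in the real comparison. A 2-fold change lies on the fold threshold itself.

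Each result was recomputed in DESeq2 1.42.0 (without and with a prior on fold changes), with RLE size factors, without the filter, on only the groups compared, with the replicate number as a block, and with each library left out. Named genes were the 5 members, the pathway list and the 3 nearest patterns of each member. The members and lists were chosen with earlier results of these data known. RefSeq (Zm-B73-REFERENCE-NAM-5.0), another build, was used for gene names only and paired 17367 identifiers with one name. Transcript lengths and sequences were not used here.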

Additional observations from a re-analysis of the deposited data

Results flagged for a closer look

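In 3 of the 35 sets of 4 leaves checked, 1 leaf stood far from the other 3, where chance gives about 1 in 20 such sets. *LOX8* in replicate 4 at 24 h after wounding was at 35.0 CPM, with the nearest leaf at 41.2 CPM. *LOX9* in replicate 1 at 2 h of *O. pratensis* was at 13.5 CPM, with the nearest leaf at 19.1 CPM. *LOX11* in replicate 1 at 2 h after wounding was at 14.6 CPM, with the nearest leaf at 25.6 CPM.

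The change from 2 to 24 h differed between mite feeding and wounding for all 5 genes in the edgeR fit, by 3.63 on the log2 scale for *LOX9*, 2.59 for *LOX8*, 2.00 for *LOX7*, 2.00 for *LOX11* and 1.58 for *LOX10*. The comparison was added after the values had been seen, and 19.5% of all tested genes were called higher in it. With *O. pratensis* and *T. urticae* alone, *LOX8* changed by -1.13 and -0.25 and *LOX7* by -0.35 and 1.07. *LOX9*, *LOX10* and *LOX11* had positive changes with both species.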

How the results depend on the processing

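The number of members called in each of the 15 comparisons was the same or within 1.5 times under DESeq2, RLE size factors, no filter, only the groups compared and the replicate block. The block moved no call and no count. The labels tie the numbers to no shared plant or day, although the study's methods name a randomized block layout. The correlation of same-numbered leaves ran from -0.25 to 0.33 (median 0.13, 47 of 84 pairs over 0.1, against a median of -0.04 for other numbers), and 19 of 28 leaves were closest to their own number, a hint from the data and not the design. Single calls lost were *LOX10* with both mites against wounding at 24 h (0.99 with RLE, 0.97 and 0.99 in DESeq2 with and without its prior, 0.98 with only the groups compared) and *LOX7* with *T. urticae* at 24 h against 2 h (0.97 in DESeq2 with its prior, 1.05 with only the groups compared). With each library left out in turn, the count was 1 to 2 for *O. pratensis* at 24 h against the controls, 0 to 1 for the species by time interaction, 2 to 3 for both mites against wounding at 24 h, 3 to 4 for *T. urticae* 24 h against 2 h and 3 to 4 for wounding 24 h against 2 h, and equal to the full count elsewhere.

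Only log2 values near 0 that were never called changed sign when a library was left out. They ran from -0.0202 to 0.19 for *LOX10* with *T. urticae* at 2 h, from -0.0258 to 0.17 for *LOX10* at 24 h after wounding and from -0.12 to 0.18 for *LOX11* with *O. pratensis* at 2 h. Between the species at 24 h they ran from -0.0664 to 0.15 for *LOX11* and from -0.26 to 0.0062 for *LOX9*. The cause was not tested. Of the 15 nearest patterns 13 were kept with a prior count of 0.5, and both lost were matches of *LOX7*. The planned comparison of levels per kilobase was not run, since no transcript length of the build was used here. Depth limits *LOX7*, with at most 47 reads a library.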
